A study of Mus musculus with 16 samples.

Results

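The effect of ertugliflozin on left ventricular gene expression was examined in mice fed a high-fat, high-sucrose diet (HFHS). HFHS ertugliflozin was compared with HFHS untreated, 4 libraries against 4, which are 8 of the 16 libraries of the series, and the members are all 15841 genes that passed a filter on low counts. All mice were C57BL/6J males that entered the study at 8 weeks of age and ate their diet for 4 months. Ertugliflozin was mixed into the food at 0.5 mg per g. The remaining 8 libraries came from mice on a low-fat control diet (CD) with the same drug dose or none. They enter the count filter, the scaling, the centring of list scores and the shared estimate of spread. They also enter the contrasts that involve CD, among them the test of whether the drug effect differed between diets. The submitters describe the 4 animals of each group as representative picks from 12, so the spread measured is that of the picked animals. RNA was enriched for poly(A) transcripts from snap-frozen whole left ventricle, so each value mixes all cell types of the tissue.

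Ertugliflozin blocks SGLT2, the sodium-glucose cotransporter of the kidney tubule, so that glucose is lost in the urine. Glucose loss lowers insulin and raises fat breakdown and ketone supply, and the heart, which lives mainly on fatty acids, can burn ketones as well. Fatty acids enter cardiac mitochondria through the carnitine shuttle and are shortened by beta-oxidation enzymes whose genes are targets of the PPAR nuclear receptors. Type I interferon signals through a complex that holds STAT2 and IRF9 to antiviral genes such as the Oas, Ifit and Mx families. Interferon gamma signals through a separate STAT dimer to guanylate-binding proteins, immunity-related GTPases and antigen presentation genes.

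The 4 HFHS ertugliflozin libraries held 16554399 to 21452212 counts and the 4 HFHS untreated libraries 14637669 to 18745934. Cardiomyocyte markers summed to 89400 to 96300 CPM (counts scaled to a common library total) in HFHS ertugliflozin and to 86400 to 97600 CPM in HFHS untreated. Both groups were thus rich in heart muscle transcripts, but these markers do not tell ventricle from atrium. Atrial markers summed to 976 to 1190 CPM in HFHS ertugliflozin and to 1050 to 1200 CPM in HFHS untreated. HFHS untreated replicate 1 stood apart: a chi-square of its counts against the other 3 libraries of its group came to 13.7 to 15 for each degree of freedom, while pairs within HFHS ertugliflozin came to 3.6 to 6.48. Slc5a2, which encodes SGLT2 itself, had 0 to 2 counts in HFHS ertugliflozin and 0 to 1 in HFHS untreated, and was below the filter.

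No single gene passed an adjusted p of 0.05 between HFHS ertugliflozin and HFHS untreated (edgeR quasi-likelihood test, Benjamini-Hochberg adjustment over all genes), so 0% of genes were called. The smallest adjusted p was 0.653. At an unadjusted p under 0.05 there were 637 genes, or 4.02% of those tested, 263 higher (1.66%) and 374 lower (2.36%) with the drug. DESeq2 also called 0 genes, with 511 at an unadjusted p under 0.05 and a smallest adjusted p of 0.0652. Limma-voom and limma on the authors' log2 values called 0 as well. The number of genes at an unadjusted p under 0.05 changed with the setting. It was 1014 by limma-voom, 1089 with scores of valve and atrial markers as covariates and 1005 without HFHS untreated replicate 1. Without HFHS ertugliflozin replicate 4 it was 467. In 1 of the 26 other settings a gene passed: without CD ertugliflozin replicate 4, which is not part of the comparison but of the shared spread, Chrna2 had an adjusted p of 0.0313. The median log2 fold change over all genes was 0.000508, the middle 50% of genes lay between -0.0715 and 0.0637, and the median standard error was 0.101. Because no gene passed, the genes below are described by their values and by their unadjusted p, which across so many genes is a ranking and not a call.

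Among the 20 genes of smallest unadjusted p with a mean of at least 1 CPM, 17 were lower and 3 higher with ertugliflozin. Of these 20 genes, 7 belong to the interferon lists used here, and of the 100 genes of smallest p, 21 do, with 74 of the 100 lower. Those lists cover type I interferon-stimulated genes, interferon-gamma-inducible GTPases and class I antigen presentation. They hold 30, 15 and 19 of the 15841 tested genes and were chosen with earlier results of these data known. Of all 637 genes at an unadjusted p under 0.05, 374 were lower. Vsir, which encodes the immune checkpoint VISTA, led the ranking with 35.8, 31.7, 37.0 and 36.6 CPM in HFHS ertugliflozin, against 53.3, 42.8, 45.8 and 41.0 CPM in HFHS untreated. All 4 treated libraries lay below all 4 untreated ones, and the log2 fold change was -0.38 (SE 0.0768, 95% interval -0.54 to -0.22, unadjusted p = 0.000103). Over all genes, 1.54% were lower without overlap and 1.31% higher. The genes named here were picked by small p, so separated groups and intervals clear of 0 follow in part from that choice. The intervals are not adjusted for it. Cd38, the main NAD-consuming ectoenzyme, was at 18.3, 16.0, 18.3 and 16.4 CPM with the drug, against 26.6, 23.3, 25.6 and 20.6 CPM untreated (log2 fold change -0.48, SE 0.108). The Cd38 libraries again did not overlap. Lower without overlap were also Sema4c, a semaphorin (log2 fold change -0.35), Sipa1, which switches off the small GTPase Rap1 (-0.28), Abcc4, an exporter of cyclic nucleotides and drugs (-0.31), Arhgap15, a Rac regulator of blood cells (-0.79), Slfn2, a schlafen family gene of immune cells (-0.36), and Cd3eap, a subunit of RNA polymerase I (-0.24). Tmem88, a membrane protein that dampens Wnt signalling, had a log2 fold change of -0.38 with overlapping groups.

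Chrna2, a nicotinic acetylcholine receptor subunit, had the smallest p among the 3 higher genes. It measured 15.6, 13.9, 16.4 and 13.9 CPM in HFHS ertugliflozin, against 8.70, 10.1, 10.2 and 9.26 CPM in HFHS untreated. The groups were well separated, with a log2 fold change of 0.64 (SE 0.141, 95% interval 0.35 to 0.94, unadjusted p = 0.00022), or 1.56-fold. This interval, too, is not adjusted for the choice of the gene by its p. On CD the drug effect was 0.50, and the difference between diets was 0.15 (unadjusted p = 0.521). Set beside these values, HFHS untreated over CD untreated was 1.67, a contrast that shares the HFHS untreated libraries. Fbxo21, a substrate adaptor of a ubiquitin ligase, had 90.4, 90.3, 93.1 and 83.5 CPM with the drug, against 72.5, 77.6, 77.3 and 80.5 CPM untreated (log2 fold change 0.21). Plk5, a polo-like kinase, had a log2 fold change of 0.94 from low levels of 1.14 to 2.39 CPM with the drug and 0.8 to 1.39 CPM untreated, so the groups overlapped.

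**Figure D1:**
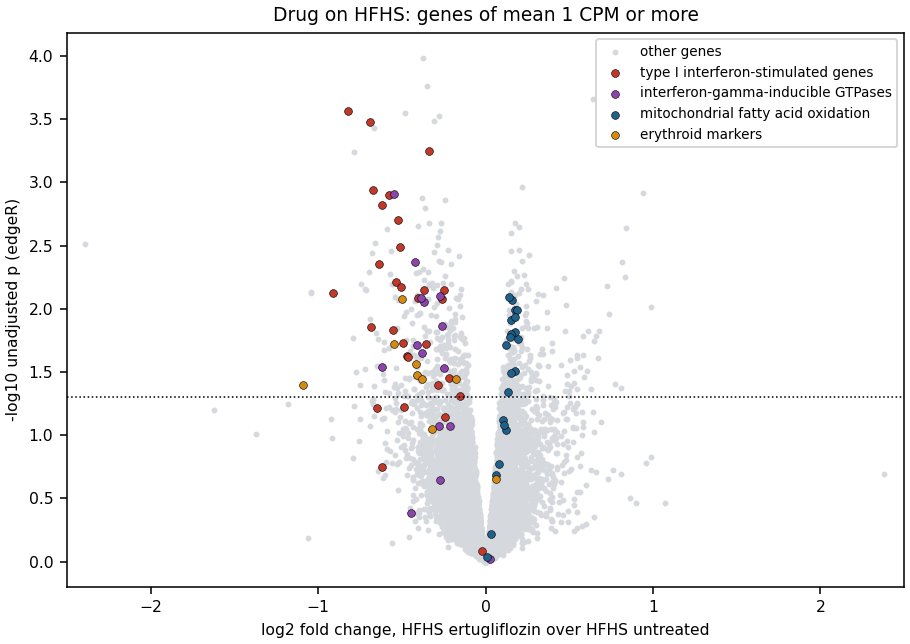
Log2 fold change of HFHS ertugliflozin over HFHS untreated (x axis) against the unadjusted p of the edgeR test on a -log10 scale (y axis) for 14186 genes with a mean of 1 CPM or more, with the members of 4 lists drawn in colour at any level. The dotted line marks an unadjusted p of 0.05. Interferon and erythroid list members lie on the lower side, and fatty acid oxidation genes lie in a narrow band on the higher side.

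Type I interferon-stimulated genes, a list of 30 antiviral effectors, sensors and transcription factors that were all tested, were lower with ertugliflozin in 30 of 30 cases, where 49.8% of all genes were below 0. At an unadjusted p under 0.05, 25 of 30 were lower and 0 higher, against a background of 2.36% lower, and 0 of 30 passed the adjusted threshold. The median log2 fold change was -0.50, or 29.2% lower, against 0.000508 over all genes. In 10 of the 30 genes all 4 treated libraries were below all 4 untreated ones, against 1.54% of all genes. Members of a pathway share their regulators and so are not independent. In bulk tissue, fewer cells of a type and less RNA per cell cannot be told apart.

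Among the effectors, Ifi44, an interferon-induced antiviral protein, had 6.38, 7.65, 5.30 and 4.81 CPM in HFHS ertugliflozin, against 11.9, 11.7, 8.14 and 10.9 CPM in HFHS untreated. The log2 fold change was -0.82 (SE 0.181, unadjusted p = 0.000274, adjusted p = 0.653), and the groups did not overlap. Oas2, which makes the 2-5A signal that activates RNase L, had 17.4, 14.4, 12.5 and 13.6 CPM with the drug, against 26.8, 28.1, 17.3 and 21.3 CPM untreated. Here the lowest untreated library was just inside the treated range, with a log2 fold change of -0.69 (SE 0.152). Ifit3b, an adaptor that binds viral RNA complexes, had 4.13, 3.99, 4.64 and 3.11 CPM with the drug, against 6.66, 8.16, 4.91 and 5.45 CPM untreated (log2 fold change -0.67). Ifit3b has a close copy in Ifit3, so its counts are uncertain. Oasl2, of the oligoadenylate synthetase family, showed a log2 fold change of -0.62 without overlap.

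Among the sensors, Ddx58, which encodes the RNA sensor RIG-I, had 23.3, 22.9, 20.2 and 19.3 CPM in HFHS ertugliflozin, against 29.1, 28.8, 25.5 and 25 CPM in HFHS untreated. All treated values were lower (log2 fold change -0.34, SE 0.0822, unadjusted p = 0.000566). Dhx58, which encodes the related regulator LGP2, had 2.53, 2.64, 3.07 and 2.52 CPM with the drug, against 4.88, 4.05, 3.16 and 3.94 CPM untreated (log2 fold change -0.58). Ifi213, a member of the PYHIN family of DNA-binding proteins that is not on the list, had a log2 fold change of -0.67 with overlapping groups. In most of these genes HFHS untreated replicate 3 was nearest to the treated libraries. A score for each library, the mean log2 CPM of the list centred over the 16 libraries, was -0.21, -0.30, -0.26 and -0.51 in HFHS ertugliflozin, against 0.36, 0.30, -0.20 and 0.04 in HFHS untreated. HFHS untreated replicates 1 and 2 were highest, and replicate 3 was level with the highest treated library.

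**Figure D2:**
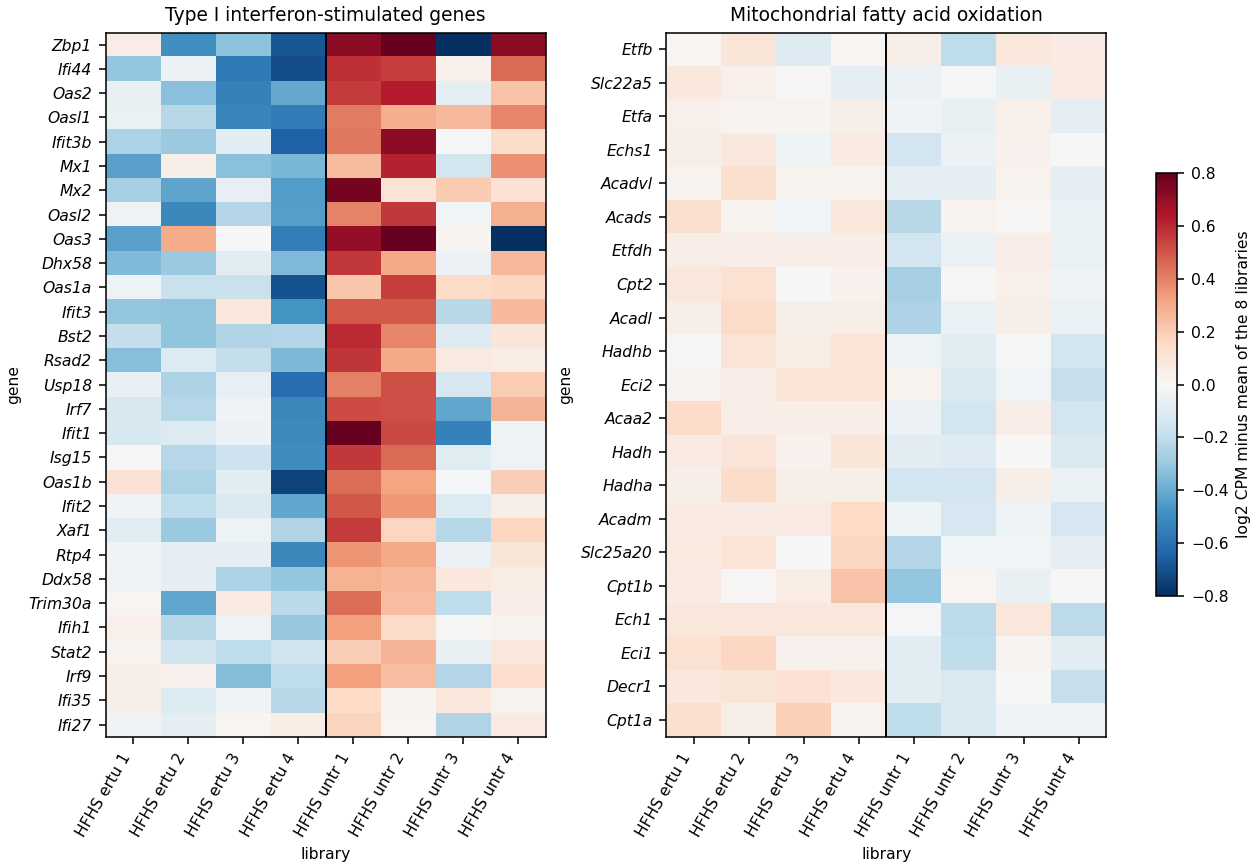
Each cell is a library's log2 CPM minus the gene's mean over the 8 HFHS libraries, with colours saturating at 0.8, for 29 of the 30 type I interferon-stimulated genes (left) and the 21 mitochondrial fatty acid oxidation genes (right). HFHS ertugliflozin libraries stand left of the black line and HFHS untreated libraries right of it. HFHS untreated replicate 3 is paler than the other untreated libraries in most interferon genes.

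Without HFHS untreated replicate 1 the median of the type I list was -0.40 with 18 of 30 members lower at an unadjusted p under 0.05. Over all 26 other settings that number ran from 17 to 27. Markers of other cells moved beside these genes. Over all genes, 49.8% were below 0 and 2.36% were lower at an unadjusted p under 0.05. Erythroid markers had a median log2 fold change of -0.41, with 7 of 9 lower at an unadjusted p under 0.05, and summed to 464 to 537 CPM in HFHS ertugliflozin and to 508 to 691 CPM in HFHS untreated. Macrophage markers had a median of -0.16, with 16 of 18 below 0 and 3 lower at an unadjusted p under 0.05, and summed to 510 to 604 CPM with the drug and to 548 to 674 CPM untreated. That number was 7 with only the 8 HFHS libraries, 6 with scores of valve and atrial markers as covariates, where the median was -0.32, 1 without HFHS untreated replicate 2 or HFHS ertugliflozin replicate 1, and 0 without HFHS untreated replicate 1 or HFHS ertugliflozin replicate 2. Neutrophil and mast cell markers had a median of -0.57 with 0 of 8 at an unadjusted p under 0.05 (3 without HFHS untreated replicate 3, and 0 to 3 over the other settings), summing to 14.3 to 16.8 CPM with the drug and to 14.1 to 22.9 CPM untreated. Lymphocyte markers summed to 15.2 to 17.3 CPM with the drug and to 17.1 to 19.5 CPM untreated, with Cd3d, Cd3e and Cd3g below the filter, and their median log2 fold change was 0.02 with 5 of 8 above 0. Their part in the interferon result was not tested.

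Interferon-gamma-inducible GTPases, a list of guanylate-binding and immunity-related proteins that attack intracellular pathogens, were lower with ertugliflozin on HFHS in 14 of 15 cases. Over all genes, 49.8% were below 0 and 2.36% were lower at an unadjusted p under 0.05. Of the GTPases, 10 of 15 were lower at that p and 0 higher, and the median log2 fold change was -0.37. Without HFHS untreated replicate 1 this number was 5, and without HFHS untreated replicate 2 it was 6. Gbp3 had 18.7, 15.5, 17.3 and 13.9 CPM in HFHS ertugliflozin, against 29.9, 25.9, 18.6 and 20.9 CPM in HFHS untreated, overlapping by a narrow margin (log2 fold change -0.54, SE 0.14). Gbp5 had a log2 fold change of -0.27. Class I antigen presentation genes were lower in 17 of 19 cases with a median of -0.16, and 1 of them, Tap1, the peptide transporter of the endoplasmic reticulum, had an unadjusted p under 0.05 (log2 fold change -0.40). Which libraries were included changed this: without HFHS untreated replicate 3 the number was 13 and the median -0.28, and without HFHS untreated replicate 1 the number was 1 and the median -0.10. The number was 6 by DESeq2 and 6 with the valve and atrial marker scores as covariates, 5 without CD ertugliflozin replicate 3, 4 without HFHS ertugliflozin replicate 1 or 3 or HFHS untreated replicate 4, and 1 to 3 otherwise. Class II genes were lower in 10 of 10 cases with a median of -0.20, and 0 had an unadjusted p under 0.05. The class II median was -0.35 without HFHS untreated replicate 3, with 2 genes at that p, and -0.08 without HFHS untreated replicate 2, with 0, and the covariate fit gave -0.40 with 3.

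Whether the drug effect differed between the diets was tested as an interaction. The effect on HFHS minus the effect on CD passed an adjusted p of 0.05 for 3 genes, or 0.0189% of those tested, and all 3 were interferon-inducible GTPases with an adjusted p of 0.0219 each: Iigp1, Igtp and Tgtp2. Iigp1 had 35.9, 36.1, 30.1 and 29.2 CPM in HFHS ertugliflozin, against 51.4, 40.8, 36.6 and 47.1 CPM in HFHS untreated. On CD it had 89.8, 109, 90.2 and 73.2 CPM with the drug, against 53.4, 45.6, 53.7 and 45.6 CPM untreated. The libraries did not overlap on either diet, the treated ones being lower on HFHS (log2 fold change -0.42, adjusted p = 1) and higher on CD (0.87, adjusted p = 0.0202), and the difference was -1.29 (SE 0.174).

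Igtp had 14.5, 12.3, 14.5 and 12.2 CPM in HFHS ertugliflozin, against 16.4, 20.4, 14.0 and 18.2 CPM in HFHS untreated. On CD the values were 27.1, 34.3, 38.5 and 30.0 CPM with the drug, against 20.4, 16.5, 21.4 and 18.6 CPM untreated. The HFHS groups overlapped and the CD groups did not, and the difference of the log2 fold changes was -1.13 (SE 0.173). Tgtp2 had 5.63, 5.57, 4.28 and 5.05 CPM in HFHS ertugliflozin, against 8.24, 7.79, 4.91 and 6.30 CPM in HFHS untreated. On CD it had 15.2, 18.2, 13.1 and 13.8 CPM with the drug, against 6.66, 8.40, 8.95 and 6.70 CPM untreated, and the difference was -1.38 (SE 0.215). Tgtp2 and Tgtp1 are near-identical copies, and Igtp overlaps Irgm2 in the annotation, so their counts are uncertain.

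These 3 calls depended on the libraries included. They ended when CD untreated replicate 1, 2 or 4, HFHS untreated replicate 1, 2 or 4, or HFHS ertugliflozin replicate 2, 3 or 4 was left out, with adjusted p between 0.0549 and 0.0972, while the differences stayed between -1.03 and -1.42. Tgtp2 alone was lost without CD ertugliflozin replicate 1 (adjusted p = 0.0573) and Igtp alone without CD ertugliflozin replicate 2 (adjusted p = 0.0535). Without HFHS untreated replicate 3, 18 genes passed. With valve and atrial marker scores as covariates 0 passed, at an adjusted p of 0.0569 for each of the 3 genes, while the differences themselves were larger in size, at -1.48 for Iigp1, -1.35 for Igtp and -1.47 for Tgtp2. DESeq2 called 19 genes, 18 lower and 1 higher.

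Across the lists, the median drug effect on CD was 0.10 for type I interferon-stimulated genes, 0.48 for the GTPases and 0.35 for class I antigen presentation. The difference between diets had a median of -0.57 for the type I list, with 22 of 30 lower at an unadjusted p under 0.05, of -0.86 for the GTPases, with 12 of 15 lower, and of -0.57 for class I genes, with 15 of 19 lower, against a background of 2.34% lower. On CD alone, 12 of 15 GTPases were higher at an unadjusted p under 0.05 (background 3.04%). Valve and cartilage markers summed to 44.6 to 114 CPM in HFHS ertugliflozin and to 39.0 to 68.5 CPM in HFHS untreated. On CD they summed to 36.1 to 117 CPM with the drug and to 78.1 to 337 CPM untreated. Their median drug effect was 0.90 on HFHS and -2.12 on CD. On HFHS, 0 of 11 had an unadjusted p under 0.05. On CD, 10 of 11 were lower at that p, where 978 of all 15841 genes reached it in either direction. The HFHS median ran from 0.492 to 1.59 over libraries left out. Under alternative fits, among them the covariate fit, it ran from -0.00419 to 0.937. The difference between diets had a median of 3.02 for them, larger in size than for the interferon lists. Of these markers, 10 of 11 were higher at an unadjusted p under 0.05 in the difference. Over all 15841 genes, 676 reached that p in either direction. The part of these markers in the difference of the interferon genes was not tested beyond the covariate fit above.

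**Figure D3:**
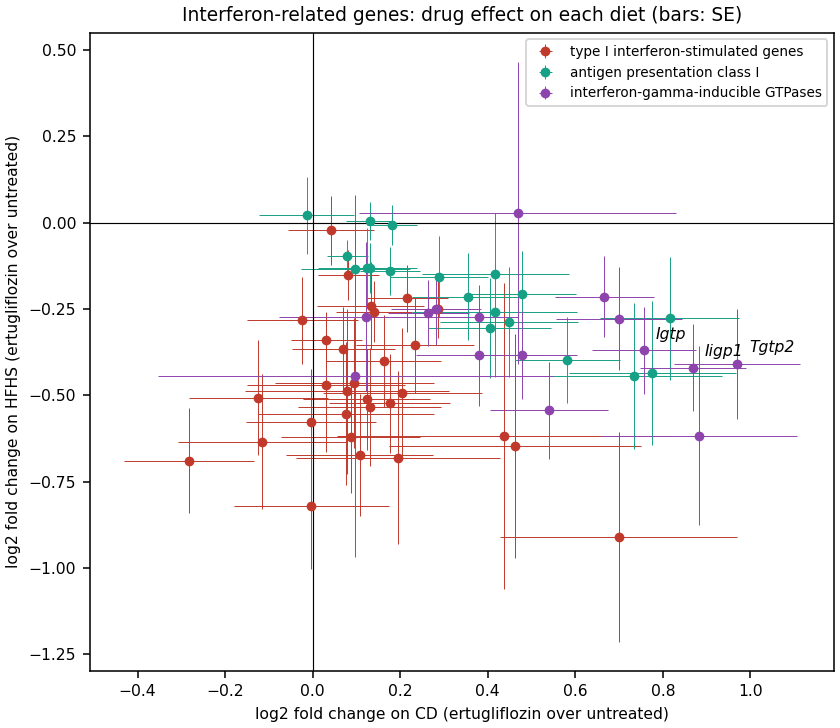
Log2 fold change of ertugliflozin over untreated on CD (x axis) and on HFHS (y axis) for the tested members of 3 interferon-related lists, with bars of 1 standard error. The diets share no library. Most points lie right of 0 on CD and below 0 on HFHS, with Iigp1, Igtp and Tgtp2 among those farthest to the right.

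Promoter sequences of 4 of these genes are shown because each holds a match to an element through which interferon acts. Of the other interferon genes named above, Ifi213 also held a match, while Ifi44, Ddx58, Oasl2 and a further start of Gbp3 held 0. Iigp1, Oas2 and Dhx58 had no promoter sequence to search, and Gbp5 and Tap1 were not looked at singly. The sequences shown are the bases before the RefSeq transcription start (GRCm38.p6), read 5′ to 3′ in the direction of the gene. Capitals mark matches on either strand to GAAANNGAAA, a core of the interferon-stimulated response element, or to TTCNNNGAA, the gamma-activated site of interferon gamma targets.
Igtp, chr11:58199406-58199555, plus strand: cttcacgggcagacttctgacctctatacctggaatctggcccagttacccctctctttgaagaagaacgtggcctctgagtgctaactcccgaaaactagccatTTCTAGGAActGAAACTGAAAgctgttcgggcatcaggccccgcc
Tgtp2, chr11:49064213-49064362, minus strand: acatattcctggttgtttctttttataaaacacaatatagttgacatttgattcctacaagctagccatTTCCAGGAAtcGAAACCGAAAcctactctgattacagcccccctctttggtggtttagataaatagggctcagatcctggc
Gbp3, chr3:142559894-142560043, plus strand: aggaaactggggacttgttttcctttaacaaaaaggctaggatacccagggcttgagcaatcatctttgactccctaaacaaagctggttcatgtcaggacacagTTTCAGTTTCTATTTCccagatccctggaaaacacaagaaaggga
Ifit3b, chr19:34607707-34607956, plus strand: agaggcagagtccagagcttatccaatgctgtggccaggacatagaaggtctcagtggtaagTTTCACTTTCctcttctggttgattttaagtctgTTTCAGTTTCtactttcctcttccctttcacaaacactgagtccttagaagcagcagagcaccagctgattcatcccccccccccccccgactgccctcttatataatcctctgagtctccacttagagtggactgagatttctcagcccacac
Igtp and Tgtp2 each hold a gamma-activated site followed by a response element, while Gbp3 holds a pair of overlapping response element matches on the other strand and Ifit3b a pair that does not overlap. Among tested genes with a promoter of 250 bases in the table, 3.3% of 10982 held GAAANNGAAA and 7.2% held TTCNNNGAA. GAAANNGAAA was found in 9 of 9 GTPase promoters, in 10 of 20 type I promoters and in 0 of 18 promoters of mitochondrial fatty acid oxidation genes. TTCNNNGAA was found in 6 of 9 GTPase, 3 of 20 type I and 3 of 18 fatty acid oxidation promoters. A match describes these letters and is not evidence of binding.

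Mitochondrial fatty acid oxidation genes were higher with ertugliflozin in 21 of 21 cases. At an unadjusted p under 0.05 there were 14 of 21 higher and 0 lower, against a background of 1.66% higher, and 0 passed the adjusted threshold. The median log2 fold change was 0.14, or 10.5% higher, within the range of 0.00643 to 0.196 over the members. In 10 of 21 genes all treated libraries were above all untreated ones, against 1.31% of all genes. Without HFHS untreated replicate 1 the number at an unadjusted p under 0.05 was 9, with a median of 0.12.

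Decr1, the reductase that handles unsaturated fatty acids, had 932, 936, 946 and 930 CPM in HFHS ertugliflozin, against 825, 802, 879 and 773 CPM in HFHS untreated. The treated libraries lay in a narrow band above the untreated ones (log2 fold change 0.19, SE 0.0672, unadjusted p = 0.0103). Acadm, the medium-chain acyl-CoA dehydrogenase, had 2060, 2110, 2010 and 2130 CPM with the drug, against 1880, 1790, 1950 and 1810 CPM untreated (log2 fold change 0.16). Hadhb, a subunit of the trifunctional protein, had 364, 389, 377 and 390 CPM with the drug, against 352, 339, 360 and 326 CPM untreated (log2 fold change 0.14). Neither gene's groups overlapped. The drug effect on CD had a median of 0.07 over the list, the difference between diets a median of 0.06 with 0 of 21 at an unadjusted p under 0.05, so a difference between the diets was not detected. HFHS untreated over CD untreated had a median of 0.23 for these genes, a contrast that shares the HFHS untreated libraries.

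PPAR target genes were higher in 23 of 24 cases with a median of 0.15, where 49.8% of all genes were below 0. At an unadjusted p under 0.05, 11 of 24 were higher, against 1.66% of all genes. Most of these 11 are members shared with the mitochondrial list and were already counted there: Cpt1a, Cpt1b, Acadm, Acadl, Hadha, Slc25a20 and Acaa2. The 2 results are therefore not separate. The number for PPAR targets was 4 without HFHS untreated replicate 1 and 7 without HFHS ertugliflozin replicate 1 or 2. Fabp3, the cardiac fatty acid-binding protein, had 1400, 1510, 1520 and 1530 CPM with the drug, against 1320, 1400, 1370 and 1270 CPM untreated (log2 fold change 0.15). Cidea, a lipid droplet protein, had a log2 fold change of 0.15, and Slc27a1, a fatty acid transport protein not on the PPAR list, one of 0.24, each with overlapping groups. Slc27a1 belongs to the fatty acid uptake and lipid droplet list, with a median of 0.07 and 17 of 25 above 0. Of that list, 3 were higher and 1 lower at an unadjusted p under 0.05, where 1.66% and 2.36% of all genes were. For Cd36, the main fatty acid uptake receptor, the log2 fold change was 0.08 (95% interval -0.03 to 0.20).

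Several other PPAR targets did not reach an unadjusted p of 0.05. Pdk4, the kinase that shuts off glucose oxidation, had 1710, 2040, 1670 and 1760 CPM in HFHS ertugliflozin, against 1000, 1860, 1140 and 1630 CPM in HFHS untreated. The untreated libraries spanned a wide range, and the log2 fold change was 0.35 (95% interval -0.17 to 0.86), or 0.22 without HFHS untreated replicate 1. Angptl4, an inhibitor of lipoprotein lipase, had a log2 fold change of 0.16 and was -0.02 without HFHS untreated replicate 1. Ucp3, a mitochondrial uncoupling protein, had 0.36 and Acot2, an acyl-CoA thioesterase with a close copy in Acot1, had 0.16, with unadjusted p of 0.409 and 0.0594. Fgf21, a fasting hormone, had 3 to 7 counts with the drug and 2 to 6 untreated, below the filter.

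For the lists that follow, 1.66% of all genes were higher at an unadjusted p under 0.05, and 49.8% of all genes were below 0. These are shares of the full fit, which had 637 genes at that p in either direction. The number over all genes was 1005 without HFHS untreated replicate 1 and 764 without HFHS untreated replicate 3. By limma-voom it was 1014, and with the valve and atrial scores as covariates 1089, so list counts in these settings have a larger background. Peroxisomal fatty acid oxidation genes were higher in 16 of 16 cases with a median of 0.10 and 3 at an unadjusted p under 0.05: Hsd17b4, the bifunctional enzyme (0.15), Scp2, a thiolase and lipid carrier (0.14), and Decr2, a peroxisomal dienoyl-CoA reductase (0.15). The number was 1 without HFHS ertugliflozin replicate 4 or HFHS untreated replicate 4. Tricarboxylic acid cycle genes were higher in 19 of 20 cases with a median of 0.08, and 2 had an unadjusted p under 0.05, among them Me3, a mitochondrial malic enzyme (0.13). For this cycle the number was 9 with the valve and atrial scores as covariates, 6 without HFHS untreated replicate 3, 5 by limma-voom, 0 without HFHS untreated replicate 2 or HFHS ertugliflozin replicate 1, 2 or 4, and 1 or 2 otherwise. Complex I subunits were higher in 37 of 37 cases with a median of 0.06, and 3 had an unadjusted p under 0.05. That number was 17 without HFHS untreated replicate 1, 12 by limma-voom, and 0 without HFHS untreated replicate 2 or 4 or HFHS ertugliflozin replicate 4. Subunits of complexes III and IV and ATP synthase were higher in 37 of 39 cases, with a median of 0.06 and 0 at an unadjusted p under 0.05. There were 12 at that p without HFHS untreated replicate 1, 11 by limma-voom, 4 without a filter, 4 with the covariates and 0 or 1 otherwise. Branched-chain amino acid catabolism had 19 of 22 genes higher, a median of 0.05 and 0 at an unadjusted p under 0.05, against 5 with the covariates, 3 by limma-voom, 2 without HFHS ertugliflozin replicate 3, 2 with only the 8 HFHS libraries and 0 or 1 otherwise. Pdk1, a pyruvate dehydrogenase kinase, had 388, 390, 381 and 384 CPM with the drug, against 325, 372, 373 and 336 CPM untreated (log2 fold change 0.13).

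Ketone body use genes had a median log2 fold change of -0.03, with 5 of 11 above 0 and 6 below, where 49.8% of all genes were below 0. Among them, Acat1, a mitochondrial thiolase, had 976, 1020, 1030 and 1030 CPM in HFHS ertugliflozin, against 973, 914, 948 and 894 CPM in HFHS untreated, all higher (log2 fold change 0.12, unadjusted p = 0.0181). Bdh1, which oxidises beta-hydroxybutyrate, had 107, 90.2, 87.8 and 107 CPM with the drug, against 73.5, 216, 111 and 96.3 CPM untreated. HFHS untreated replicate 2 was far above the rest, and the log2 fold change of -0.35 (SE 0.29) was 0.07 without it. Oxct1, which activates acetoacetate, had a log2 fold change of -0.07 (unadjusted p = 0.208). Glycolysis and glycogen genes had a median of 0.02, and triglyceride and fatty acid synthesis genes one of -0.02, with Gpam, which starts triglyceride synthesis, at 0.17. Pmvk, a cholesterol synthesis kinase, had a log2 fold change of 0.19.

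**Figure D4:**
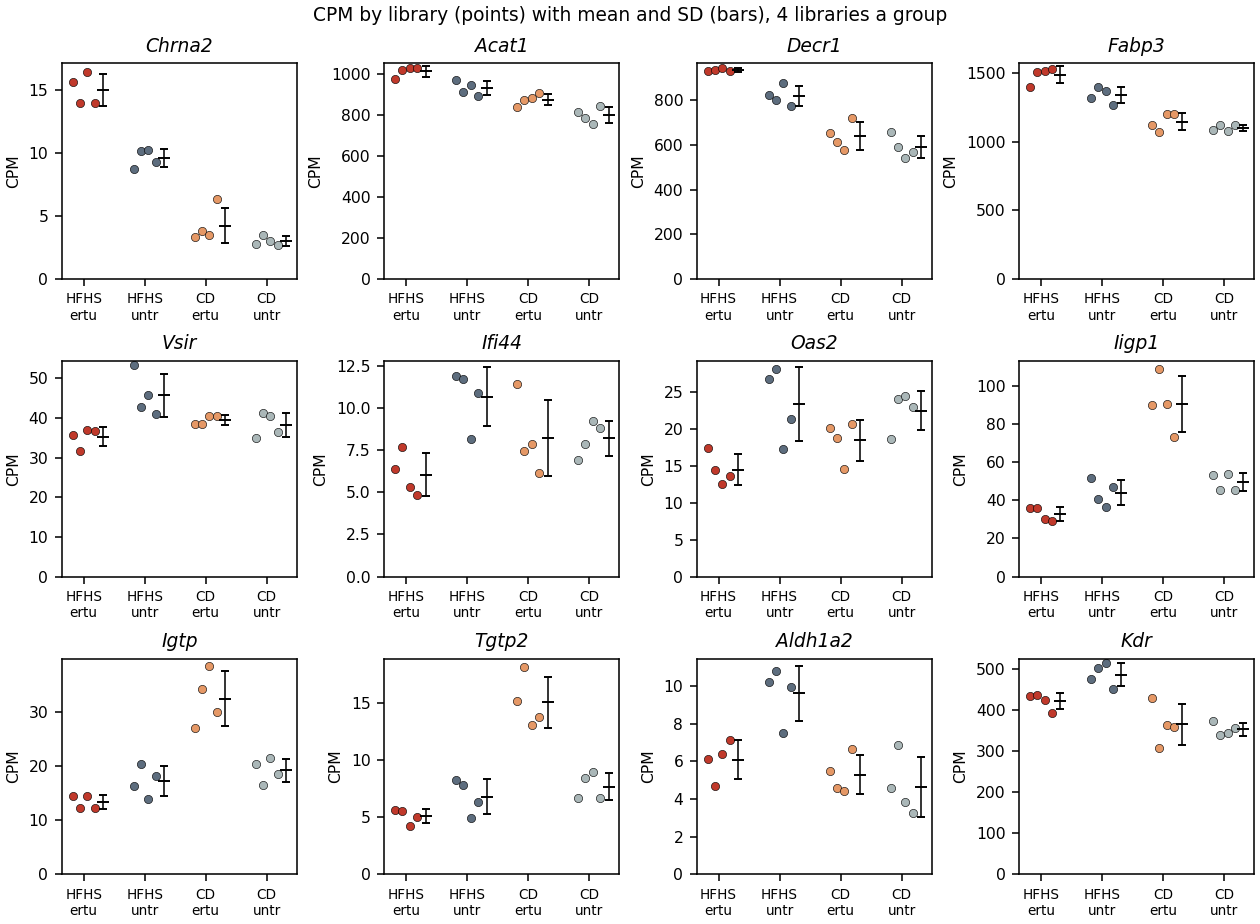
CPM in each library (points) with the mean and SD of 4 libraries (bars) for 12 genes, in the order HFHS ertugliflozin, HFHS untreated, CD ertugliflozin and CD untreated. Chrna2, Acat1, Decr1 and Fabp3 are higher in HFHS ertugliflozin than in HFHS untreated, Vsir, Ifi44, Aldh1a2 and Kdr are lower, and Iigp1, Igtp and Tgtp2 are highest in CD ertugliflozin.

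Genes of cardiac structure and remodelling had medians near 0. The medians were 0.00 for sarcomere and Z-disc genes, -0.01 for calcium handling, -0.01 for the fetal and hypertrophy genes and -0.02 for collagens and basement membrane, each with 0 members at an unadjusted p under 0.05. Leaving out HFHS untreated replicate 1 gave 4 lower sarcomere members and 2 lower calcium members at that p. Nppa, the atrial natriuretic peptide, had 69.0, 57.0, 59.6 and 93.9 CPM in HFHS ertugliflozin, against 94.0, 85.8, 72.6 and 79.9 CPM in HFHS untreated (log2 fold change -0.25, unadjusted p = 0.586). Nppb, the B-type natriuretic peptide, had 186, 267, 129 and 316 CPM with the drug, against 338, 498, 125 and 266 CPM untreated, with an interval of -1.52 to 0.62 on the log2 scale. Myh7, the slow myosin heavy chain, had a log2 fold change of -0.35, which was 0.17 without HFHS untreated replicate 2. These intervals are too wide to tell a decrease from an increase. Among ion channel genes, Hcn2, a pacemaker channel, had 24.4, 27.5, 27.4 and 28.1 CPM with the drug, against 26.1, 20.6, 22.7 and 20.2 CPM untreated (log2 fold change 0.26).

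Sodium and glucose transport genes had a median of 0.03 with 0 of 13 at an unadjusted p under 0.05. Slc5a1, which encodes SGLT1, a cotransporter related to the drug's target, had 0.328 to 1.24 CPM with the drug and 0.303 to 0.8 CPM untreated, and its log2 fold change of 0.25 was -0.04 without HFHS ertugliflozin replicate 2. Txnip, a glucose-responsive inhibitor of thioredoxin, ranged from 589 to 1210 CPM with the drug and from 493 to 1340 CPM untreated. Insulin signalling genes had a median of -0.05, with Grb10, an adaptor that restrains insulin receptor signalling, at 127, 126, 117 and 129 CPM with the drug, against 133, 149, 149 and 136 CPM untreated. The Grb10 groups did not overlap (log2 fold change -0.18, unadjusted p = 0.0208).

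Inflammation and inflammasome genes were lower in 18 of 20 cases with a median of -0.19, and 2 had an unadjusted p under 0.05. Over all genes, 49.8% were below 0 and 2.36% were lower at that p. Nlrp3, the sensor of the inflammasome, had 0.892, 0.675, 0.542 and 0.411 CPM in HFHS ertugliflozin, against 0.923, 1.33, 1.40 and 0.908 CPM in HFHS untreated (log2 fold change -0.83, SE 0.301, unadjusted p = 0.0128). Tnf, the tumour necrosis factor gene, had 0.375, 0.506, 0.482 and 0.470 CPM with the drug, against 0.593, 0.960, 1.05 and 0.727 CPM untreated (log2 fold change -0.86). Both were measured at low levels, and their groups did not overlap. Complement genes were lower in 14 of 16 cases, with C1qa, a macrophage product, at 36.7, 36.1, 41.3 and 39.6 CPM with the drug, against 50.3, 47.5, 46.8 and 43.3 CPM untreated (log2 fold change -0.29). The number of complement genes at an unadjusted p under 0.05 was 1, and it was 6 with the valve and atrial scores as covariates, 5 with only the 8 HFHS libraries and 0 without HFHS ertugliflozin replicate 1 or 2 or HFHS untreated replicate 1 or 2. Cd68, a lysosomal protein of macrophages, had a log2 fold change of -0.34, and Fcgr1, an Fc receptor, one of -0.46, which was -0.25 without HFHS untreated replicate 2. These genes are also macrophage markers.

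Among stress lists, heat shock proteins and cochaperones were lower in 18 of 22 cases with a median of -0.08, where 49.8% of all genes were below 0. Over all genes, 2.36% were lower at an unadjusted p under 0.05. In the list 1 gene was, Hspe1, the mitochondrial cochaperonin (log2 fold change -0.13). That number was 6 with the covariates, 4 without HFHS untreated replicate 1 or with only the 8 HFHS libraries, 0 without HFHS ertugliflozin replicate 1, and 0 to 3 otherwise. P4ha1, a collagen prolyl hydroxylase of the hypoxia list, had 87.7, 85.1, 86.6 and 85.3 CPM with the drug, against 97.2, 121, 111 and 105 CPM untreated. All treated libraries were lower (log2 fold change -0.34, unadjusted p = 0.00641), while the hypoxia list had a median of -0.02. Ero1l, an oxidase of protein folding, had a log2 fold change of -0.16. Fgf1 and Fgf16, cardiac growth factors, had log2 fold changes of 0.13 and 0.24, on a list with a median of 0.04, and the value for Fgf16 was 0.13 without HFHS untreated replicate 2.

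Among markers of non-muscle cells, endothelial markers were lower in 17 of 18 cases, where 49.8% of all genes were below 0. Their median was -0.11, which was -0.03 without HFHS untreated replicate 1. Kdr, the VEGF receptor, had 435, 437, 426 and 394 CPM in HFHS ertugliflozin, against 476, 502, 515 and 452 CPM in HFHS untreated, with no overlap (log2 fold change -0.20, unadjusted p = 0.0143). Emcn and Tie1, both of the endothelial surface, had log2 fold changes of -0.27 and -0.12, or -0.125 and -0.07 without HFHS untreated replicate 1. Pdgfra, the platelet-derived growth factor receptor of fibroblasts, had 77.8, 69.4, 78.3 and 80.1 CPM with the drug, against 92.0, 94.1, 84.4 and 81.9 CPM untreated (log2 fold change -0.21), although the fibroblast list had a median of 0.00. Aldh1a2, the retinoic acid enzyme of the epicardium, had 6.15, 4.72, 6.38 and 7.16 CPM with the drug, against 10.2, 10.8, 7.51 and 9.93 CPM untreated (log2 fold change -0.66, unadjusted p = 0.003). Upk3b, a mesothelial surface gene, had 0 to 0.375 CPM with the drug and 0.462 to 3.36 CPM untreated. The top value was that of HFHS untreated replicate 2, with the others at 0.462 to 0.605 CPM. Aldh1a2 and Upk3b belong to a mesothelial list of 12 genes with 5 tested, whose median was -0.19 with 4 of 5 below 0. Dbh, the noradrenaline-making enzyme of sympathetic nerves, had 4.46, 9.89, 5.30 and 6.63 CPM with the drug, against 3.63, 2.45, 5.26 and 3.69 CPM untreated (log2 fold change 0.82, unadjusted p = 0.00428), while the Schwann cell and neuron list it belongs to had a median of -0.10 with 6 of 11 below 0.

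Erythroid markers were lower in 8 of 9 cases, where 49.8% of all genes were below 0. Hbb-bs, an adult beta-globin with a close copy in Hbb-bt, had 153, 192, 163 and 144 CPM in HFHS ertugliflozin, against 291, 185, 207 and 186 CPM in HFHS untreated. The highest treated library lay within the untreated range, and HFHS untreated replicate 1 was the highest of all. Without it the erythroid median was -0.24, and the number lower at an unadjusted p under 0.05 was 1. That number was 2 without HFHS ertugliflozin replicate 1 or 4, 4 without HFHS ertugliflozin replicate 3, 3 by limma-voom and 1 with the valve and atrial covariates. 

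**Figure D5:**
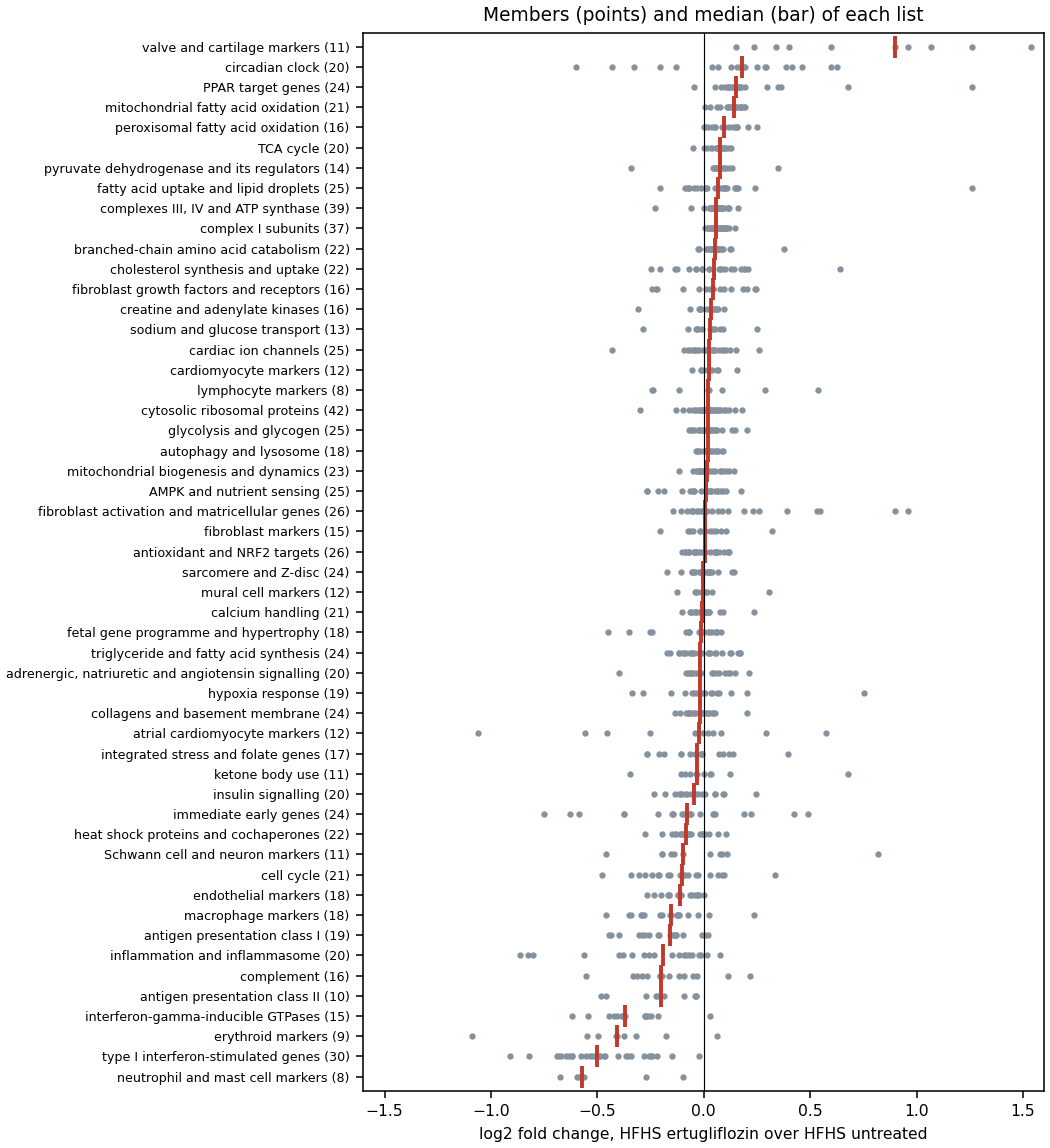
Log2 fold change of HFHS ertugliflozin over HFHS untreated for the members (grey points) and the median (red bar) of 52 gene lists with at least 8 tested members, ordered by median, with the number of members in brackets. The axis ends at 1.6 on either side, and 4 members lie beyond it. Neutrophil and mast cell, type I interferon, erythroid and interferon-gamma-inducible GTPase lists have the lowest medians. Valve and cartilage markers and circadian clock genes have the highest, with 0 members of either at an unadjusted p under 0.05. Fatty acid oxidation lists are tight and above 0.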

How the data were processed

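Whole-number read counts per Ensembl gene were used as deposited, without normalization, for 53764 genes in 16 libraries. Per the labels' protocols, libraries were poly(A)-selected and strand-marked. The submitters' processing notes list FastQC 0.11.7, DESeq2 1.22.1, Subread 1.6.2 with featureCounts, STAR 2.6.0c and build mm10. Which annotation, strandedness and multi-mapping rule the counting used is not given in the sources used here. A second deposited table holds log2 values of the regularized kind, in which low genes are shrunk, and served only as an alternative input. Symbols and coordinates came from GENCODE M21 (GRCm38).

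Testing was done with edgeR 4.0.16 under R 4.3.3 (filterByExpr, TMM, robust quasi-likelihood fit of 1 mean per group over all 16 libraries, Benjamini-Hochberg adjustment over 15841 genes, threshold 0.05). Depth was 14637669 to 21452212 counts per library. SE is the size of the log2 fold change over the square root of F. CPM uses TMM-scaled totals. The scripts were tested on simulated data. Libraries of a group are separate animals per the labels, and no pair agreed within sampling noise.

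Named genes are the 20 of smallest unadjusted p whose mean reaches 1 CPM, the 3 or fewer of smallest p from each of 55 lists, 21 preset genes, and the 5 of smallest p for the drug-by-diet difference and for the drug on CD. Model names were skipped, and a few genes are left out of the text. The members and lists were chosen with earlier results of these data known. Alternatives used DESeq2 1.42.0, limma 3.58.1, other scalings and filters, covariates, the replicate number as a block, and each library left out. In lists, no test over the members was made.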

Additional observations from a re-analysis of the deposited data

Results flagged for a closer look

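Of 154 sets of 4 HFHS libraries checked for a library far from the other 3, 10 (6.49%) had one, where chance gives about 1 in 20. In HFHS ertugliflozin these were replicate 3 for Sema4c (21.2 CPM, others 25.4 to 26.1), Ucp3 (159 CPM, others 115 to 118), Me3 (104 CPM, others 114 to 115) and Fgf1 (292 CPM, others 305 to 307), replicate 1 for Pmvk (11 CPM, others 9.39 to 9.63) and replicate 4 for Gbp5 (10.6 CPM, others 12.9 to 13.3). In HFHS untreated they were replicate 1 for Emcn (79.6 CPM, others 55.5 to 56.6), replicate 2 for Upk3b (3.36 CPM, others 0.462 to 0.605) and replicate 4 for Slc5a1 (0.303 CPM, others 0.772 to 0.8) and Slc27a1 (236 CPM, others 195 to 200).

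The drug effect differed between diets by the interaction test for 3 genes. The effect on HFHS minus that on CD was -1.29 for Iigp1, -1.13 for Igtp and -1.38 for Tgtp2 on the log2 scale.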

How the results depend on the processing

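The count of genes past the threshold for the drug on HFHS was 0 under every alternative fit and in every fit that left out a library but 1, and ran from 0 to 1 over libraries left out, with Chrna2 the exception named above. For the difference between diets the count was 3, with 6 without a filter, 19 by DESeq2, 0 with valve and atrial scores (differences of -1.48 for Iigp1, -1.35 for Igtp and -1.47 for Tgtp2, larger in size than in the full fit), and 0 to 18 over libraries left out. Without a filter Iigp1 had an adjusted p of 0.0615. For the drug on CD it was 3, with 10 by DESeq2, 0 with those scores, and 0 to 6 over libraries left out. The cause was not tested. The library totals limit low genes: the median SE was 0.0723 in genes of at least 10 CPM and 0.101 over all.

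Reversals of sign came only when a library was left out, and none of these genes had an unadjusted p under 0.05. Over libraries left out the log2 fold change ran from -0.0195 to 0.412 for Angptl4, from -0.0847 to 0.475 for Txnip (also -0.0588 without HFHS untreated replicate 1), from -0.529 to 0.0656 for Bdh1, from -0.585 to 0.171 for Myh7 and from -0.0403 to 0.541 for Slc5a1. Without HFHS untreated replicate 1 the log2 fold change was 0.227 for Ucp3, 0.0856 for Cidea, 0.0721 for Acot2, 0.109 for Gpam and -0.242 for Hbb-bs. Among named genes over all comparisons, calls at the adjusted threshold were gained 10 times and lost 10 times under alternative fits, and gained 12 times and lost 49 times with a library left out. List medians moved by more than the median SE of their members 28 times under alternative fits and 3 times with a library left out.

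Same-numbered libraries of the groups did not deviate together: their correlations were 0.0777, -0.0379, -0.00115 and -0.0898, so the numbers do not pair them. With the replicate number as a block 0 genes passed for the drug on HFHS, with 672 at an unadjusted p under 0.05, and 2 passed for the difference, Igtp having an adjusted p of 0.113.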
